A study of Mus musculus with 31 samples.

Results

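The 32 genes described here are markers of mature oligodendrocytes other than the major myelin genes Mbp, Mag, Mobp and Cnp. They were chosen by name as a list of known oligodendrocyte and myelin genes, and make up 32 of the 25497 genes quantified. Earlier results of these data were known when the genes were chosen, so the list may not be independent of these data. All 32 passed the filter on low counts, which left 14886 genes for testing, and the lowest summed count of any member in any library was 176. Expression was measured by RNA-seq of the mouse thalamus in 31 libraries, to ask whether the rearing of the mother bears on her adult offspring. The groups were 7 male and 8 female offspring of mothers reared in social isolation (SIR), and 8 male and 8 female offspring of control mothers. Every animal was an adult of postnatal day 90, as the design text of the series gives it, and every library was made from polyadenylated RNA. Strain, litter and batch are not among the labels, so p-values measure the spread between these libraries, and littermates, if any, entered as separate animals. Every SIR library carries a lower number than every control library, so handling by number range and maternal housing cannot be told apart.

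Oligodendrocytes wrap axons in many turns of their own membrane, and this compacted membrane, the myelin sheath, insulates the axon and speeds conduction. The sheath is rich in galactolipids and holds a small set of very abundant proteins, with many less abundant ones at its outer face, its inner tongue, its tight junctions and the loops beside the nodes. In the thalamus, myelinated fibres run to and from the cortex through every relay nucleus. Genes of mature oligodendrocytes are switched on together during differentiation under the transcription factors SOX10 and MYRF.

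Library totals lay between 13 and 25.74 M (mega) estimated counts, with a median of 23.28 M. All 10 thalamic relay neuron markers were measured, with summed levels of 2066 to 3797 CPM across the 31 libraries. A Y-linked transcript, Ddx3y, stood at 41.6 CPM in the library labelled SIR female 5, inside the range of 31.5 to 50.2 CPM in libraries labelled male, and at 0.0481 CPM or less in the other 15 libraries labelled female. That library is kept under its label here, and counts without it are given beside the counts they touch. Levels of a gene are given as counts-per-million on TMM-scaled totals (CPM), as the lowest, median and highest library of a group. Log2 fold changes are given with their SE from edgeR's quasi-likelihood fit, with Benjamini-Hochberg p-values adjusted across the 14886 genes and a threshold of 0.05. In bulk tissue, fewer oligodendrocytes and less RNA per oligodendrocyte cannot be told apart.

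Promoter sequences were found for 24 of the 32 genes in RefSeq (build GRCm38.p6), as 300-base windows from 250 bases before to 50 after a gene's start. The other 8 were Trf, Fa2h, Enpp2, Cryab, Ndrg1, Car2, Adamts4 and Evi2a. Windows of 4 genes are shown because they hold the MYRF motif searched for, and because these genes span the outcomes described below: Prr18 and S1pr5 differed with maternal housing in both sexes, Mog differed between the sexes in controls, and Opalin passed no comparison by edgeR with all libraries kept. Capitals mark matches to the MYRF motif (CTGGCAC or CTGGTAC) and to the SOX motif (AACAAT or ACAAAG) on either strand. The windows run 5′ to 3′ on the strand of the gene and lie at chr17:8340489-8340788 (plus strand) for Prr18, chr9:21248394-21248693 (minus strand) for S1pr5, chr17:37023349-37023648 (minus strand) for Mog and chr19:41077064-41077363 (minus strand) for Opalin.
Prr18: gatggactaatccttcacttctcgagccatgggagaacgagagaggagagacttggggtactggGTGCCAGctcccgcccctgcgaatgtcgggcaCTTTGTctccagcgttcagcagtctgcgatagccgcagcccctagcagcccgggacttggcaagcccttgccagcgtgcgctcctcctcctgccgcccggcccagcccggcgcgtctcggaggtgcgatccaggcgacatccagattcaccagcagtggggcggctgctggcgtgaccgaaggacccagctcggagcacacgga
S1pr5: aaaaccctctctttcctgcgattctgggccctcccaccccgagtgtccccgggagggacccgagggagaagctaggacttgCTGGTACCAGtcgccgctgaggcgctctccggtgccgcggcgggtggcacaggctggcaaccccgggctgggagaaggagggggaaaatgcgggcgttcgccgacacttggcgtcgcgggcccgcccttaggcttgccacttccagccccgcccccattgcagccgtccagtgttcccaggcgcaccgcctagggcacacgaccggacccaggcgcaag
Mog: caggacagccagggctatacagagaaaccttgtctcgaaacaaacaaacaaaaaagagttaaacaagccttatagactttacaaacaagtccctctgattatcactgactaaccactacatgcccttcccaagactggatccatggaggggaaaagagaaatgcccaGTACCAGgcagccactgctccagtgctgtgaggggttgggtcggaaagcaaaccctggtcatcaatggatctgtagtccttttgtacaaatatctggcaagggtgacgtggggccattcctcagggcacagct
Opalin: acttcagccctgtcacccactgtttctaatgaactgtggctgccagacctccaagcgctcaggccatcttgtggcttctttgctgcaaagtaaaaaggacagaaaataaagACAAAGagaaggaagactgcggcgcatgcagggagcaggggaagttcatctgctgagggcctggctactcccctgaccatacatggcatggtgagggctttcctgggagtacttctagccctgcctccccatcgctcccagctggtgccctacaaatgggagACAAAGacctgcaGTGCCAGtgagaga
The MYRF motif stands once in the Prr18 window shown, 186 bases before the start, and once in the Mog window, 83 bases before it. In S1pr5 the palindromic run holds overlapping matches on both strands, 169 and 166 bases before the start. In Opalin the MYRF match lies 37 bases after the start and a SOX match 24 bases after it, with another SOX match 139 bases before. Over all members, 6 of 37 promoter windows held the MYRF motif (in Mog, Opalin, Prr18, S1pr5, Hapln2 and Tmem125), and 7.095% of 32841 windows of the same length in the table did. The SOX motif stood in 11 of 37 windows, from 9 genes, and in 27.04% of all windows. A match in these windows is a description of the letters, not a bound site.

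Per transcript length, the 32 genes had medians from 5.09 to 818 TPM (the length-scaled unit of the deposited tables). Trf, which encodes the iron carrier transferrin, had the highest median of the 31 libraries, at 818 TPM (range 605 to 1023). Apod, encoding the lipid-binding apolipoprotein D, followed at 643 TPM and the membrane-associated Plekhb1 at 617 TPM. The ranges of these 3 genes overlapped across the libraries (488 to 1033 TPM for Apod, 510 to 751 TPM for Plekhb1), and their order within each library was not tested. Hhip, which encodes a hedgehog-binding protein, was lowest at 5.09 TPM (3.28 to 8.26), and its highest library lay below the lowest library of Tmem125 (9.48 TPM), the gene next above it. For scale, Mbp had a median of 4698 TPM and Mag, the lowest of these 4 major myelin genes, 346 TPM, so that 5 members (Trf, Apod, Plekhb1, Cryab and Car2) exceeded the median of Mag.

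**Figure D1:**
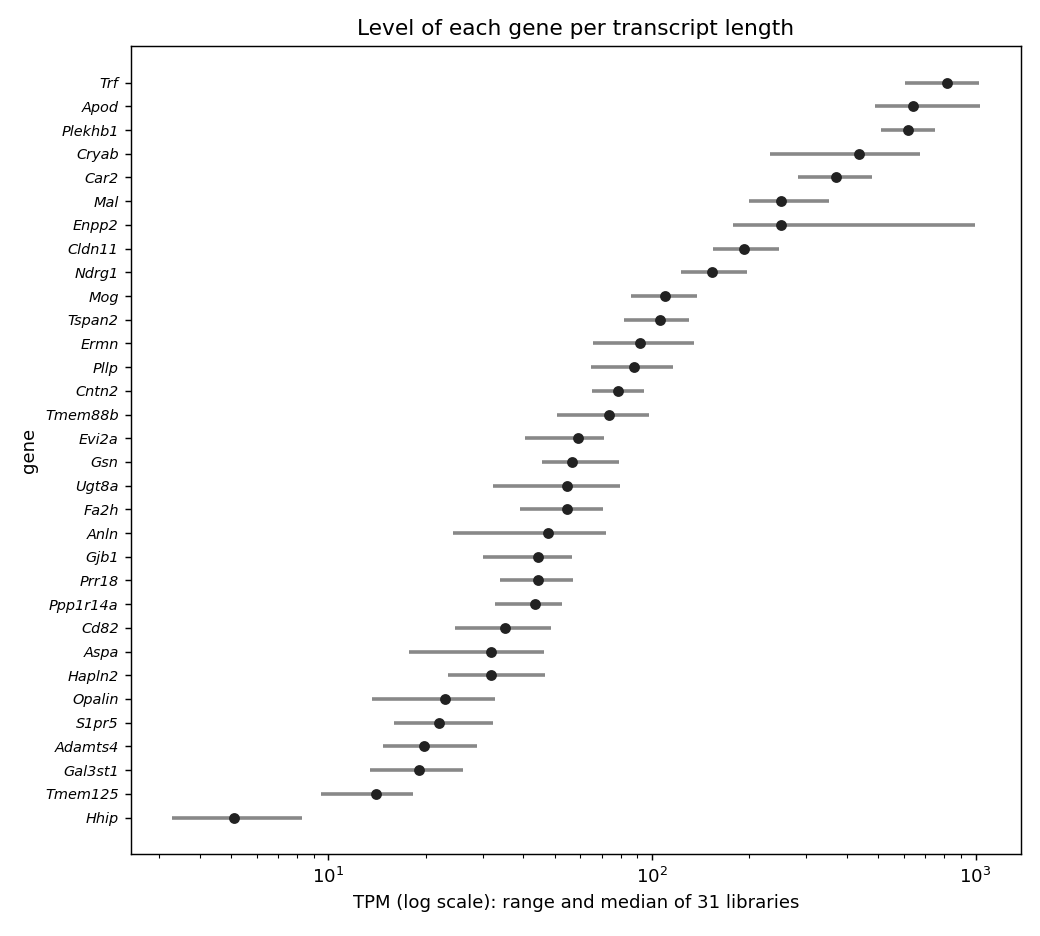
Level of each of the 32 genes per transcript length, in TPM on a log axis. Points are medians and bars ranges of the 31 libraries, with genes ordered from the highest median (Trf, 818 TPM) to the lowest (Hhip, 5.09 TPM); the long bar of Enpp2 (178 to 993 TPM) comes from control female 20.

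Those of the 32 genes that passed the test of maternal housing were higher in SIR than in control males, and lower in SIR than in control females. In males 4 of the 32 genes rose with maternal SIR and none fell, against 0.282% of all tested genes that rose. They were the tetraspanin gene Cd82, Prr18 (a proline-rich protein of little known function), the sphingosine-1-phosphate receptor gene S1pr5 and Plekhb1. All 32 fold changes were positive in males, with a median log2 fold change of 0.23 and a range of 0.02 to 0.42, beside a median of 0.00 over all tested genes. In females 14 of the 32 genes fell and none rose, against 2.24% of all tested genes that fell. In females 31 of 32 fold changes were negative, with a median of -0.26 and a range of -0.60 to 0.03, beside a median of -0.01 over all tested genes. Prr18, S1pr5 and Cd82 passed in both sexes, in opposite directions. The summed level of the 32 genes was 4081 to 5429 CPM (median 4835) in SIR males, against 3663 to 4936 CPM (median 4184) in control males. It was 3921 to 5295 CPM (median 4753) in SIR females, against 5152 to 6082 CPM (median 5823) in control females. Within each sex the groups overlapped in these sums, and control females stood highest by the median. The highest sum, 6082 CPM, was that of control female 20, where Enpp2 alone had 1246 CPM, beside a median of 423 CPM in control females.

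The number of genes that passed in males moved with single libraries, and was 4 without the library labelled SIR female 5. It was 0 without control male 22, 1 without SIR male 15, control male 21 or control male 25, and 2 without SIR male 1 or SIR male 6. It was 7 without SIR female 2, 8 without control female 20, 9 without SIR male 4, and 10 without control male 23 or control male 27. In females it was 7 without control female 29, 8 without SIR female 3 or SIR female 7, 9 without SIR female 2 or control female 26, and 11 without the library labelled SIR female 5. With 8 libraries left out whose library numbers lie apart from the rest (SIR male 1, SIR females 2 and 3, control males 27 and 28 and control females 29, 30 and 31), edgeR called 11 genes in males and none in females, where 17 of 32 had an unadjusted p under 0.05 and the median was -0.20. With all 31 libraries kept, DESeq2 called 12 genes in males and 15 in females. The medians over the 32 genes moved less, between 0.18 and 0.26 in males and between -0.27 and -0.22 in females when any single library was left out.

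**Figure D2:**
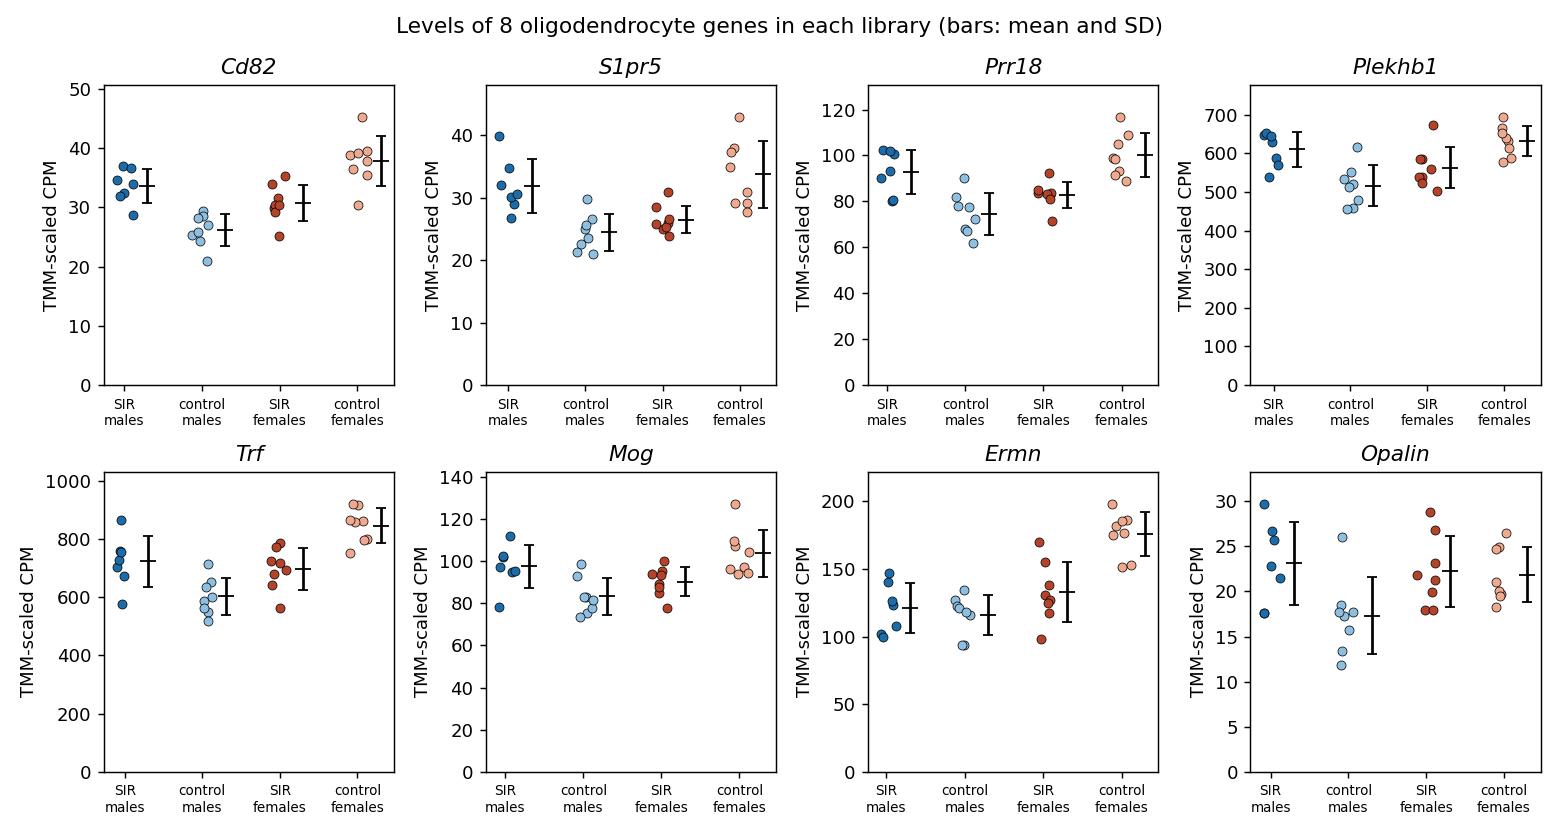
Level of 8 of the genes in each library (TMM-scaled CPM, linear axes from 0), with the mean and SD of each group beside its points; n = 7 SIR males, 8 control males, 8 SIR females and 8 control females. Cd82, S1pr5 and Prr18 passed as higher in SIR than in control males and as lower in SIR than in control females, although these groups overlap within each sex. The groups of Opalin overlap too, and it passed in neither sex.

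Membrane proteins of the sheath made up 11 of the genes. Of these, Cd82 and Plekhb1 rose in SIR males, and Cldn11, Mal, Cd82 and Tmem88b fell in SIR females. Cd82, which encodes a tetraspanin that organizes membrane microdomains, had 28.7, 33.9 and 37.1 CPM (lowest, median and highest) in SIR males, against 20.9, 26.4 and 29.4 CPM in control males. It had 25.2, 30.4 and 35.3 CPM in SIR females, against 30.4, 38.3 and 45.3 CPM in control females. Of the 7 SIR males, 6 exceeded the highest control male, and 5 of 8 SIR females lay below the lowest control female. The log2 fold change of Cd82 was 0.36 ± 0.07 in males (edgeR adjusted p = 0.0149) and -0.30 ± 0.07 in females (edgeR adjusted p = 0.0137). Plekhb1, which encodes a small pleckstrin homology domain protein of membranes, had 540, 630 and 654 CPM in SIR males, against 457, 517 and 617 CPM in control males. In females it had 502, 549 and 674 CPM in the SIR group, against 578, 636 and 694 CPM in controls. All 7 SIR males exceeded the median control male, and 7 of 8 SIR females lay below the median control female, with overlap in both sexes. Plekhb1 rose by 0.24 ± 0.06 in males (edgeR adjusted p = 0.0396), while its value of -0.17 ± 0.06 in females did not pass (0.0964).

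Cldn11 encodes the claudin of the tight junctions between myelin turns. Its levels were 142, 191 and 218 CPM in SIR males, against 149, 167 and 202 CPM in control males. They were 155, 183 and 210 CPM in SIR females, against 189, 216 and 234 CPM in control females. Each SIR female lay below the median control female and 5 lay below the lowest. In females Cldn11 fell by 0.23 ± 0.07 (edgeR adjusted p = 0.0406). This call was lost without the library labelled SIR female 5, and held in 19 of 31 fits that each left out a library. The log2 fold change of Cldn11 in males, 0.16 ± 0.07, did not pass (edgeR adjusted p = 0.218). Mal, which encodes a proteolipid of membrane rafts, had 273, 346 and 395 CPM in SIR males, against 282, 317 and 380 CPM in control males. In females it had 279, 352 and 405 CPM in the SIR group, against 366, 411 and 509 CPM in controls. Again all 8 SIR females lay below the median control female, and Mal fell by 0.30 ± 0.08 in females (edgeR adjusted p = 0.0237). Tmem88b, a transmembrane gene, had 116, 143 and 158 CPM in SIR males, against 89.2, 120 and 135 CPM in control males. It had 106, 132 and 141 CPM in SIR females, against 139, 152 and 192 CPM in control females, where 7 of 8 SIR animals lay below the lowest control. Tmem88b fell by 0.27 ± 0.08 in females (edgeR adjusted p = 0.0388).

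Mog encodes the immunoglobulin-domain protein at the outermost face of the sheath. It had 78.5, 97.1 and 112 CPM in SIR males, against 73.4, 82.4 and 98.5 CPM in control males, and 77.7, 91.4 and 100 CPM in SIR females, against 93.8, 101 and 127 CPM in control females. With log2 fold changes of 0.23 ± 0.07 in males and -0.20 ± 0.07 in females, Mog passed in neither sex (edgeR adjusted p = 0.0789 and 0.0832), although all 8 SIR females lay below the median control female. Pllp, encoding the tetraspan proteolipid plasmolipin, had 70.1, 78.6 and 87.4 CPM in SIR males, against 53.0, 66.0 and 76.2 CPM in control males, with all 7 SIR males above the median control. In females Pllp had 61.6, 71.6 and 83.5 CPM in the SIR group, against 65.6, 76.9 and 94.9 CPM in controls, and it passed in neither sex (edgeR adjusted p = 0.0522 in males and 0.388 in females). Opalin, an oligodendrocyte-specific transmembrane sialoglycoprotein gene, had 17.6, 22.8 and 29.7 CPM in SIR males, against 11.9, 17.5 and 26.1 CPM in control males. In females Opalin had 17.9, 21.5 and 28.8 CPM in the SIR group, against 18.3, 20.6 and 26.5 CPM in controls. Opalin had the largest fold change of the 32 genes in males, 0.42 ± 0.14, and the only positive value in females, 0.03 ± 0.13, and passed in neither (edgeR adjusted p = 0.0974 and 0.932). Tspan2, another tetraspanin gene, had 142, 172 and 185 CPM in SIR males, against 144, 153 and 183 CPM in control males, and 143, 170 and 197 CPM in SIR females, against 157, 186 and 219 CPM in control females. Tmem125 had 13.5, 14.9 and 16.2 CPM in SIR males, against 9.60, 12.4 and 16.4 CPM in control males, and 9.59, 14.8 and 17.05 CPM in SIR females, against 13.1, 14.2 and 17.5 CPM in control females. Evi2a is a transmembrane gene that lies inside an intron of Nf1, and its value is uncertain because the sources used here do not state the use of strand in counting. It had 31.1, 35.8 and 45.7 CPM in SIR males, against 25.4, 34.0 and 35.7 CPM in control males, and 29.96, 40.0 and 42.4 CPM in SIR females, against 40.4, 42.9 and 46.5 CPM in control females. The groups of Tspan2, Tmem125 and Evi2a overlapped within each sex, and none of the 3 passed a housing comparison.

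Cytoskeletal regulators of the sheath made up 4 of the genes, and Ermn and Gsn fell in SIR females. Ermn encodes ermin, an actin-binding protein of late oligodendrocytes. It had 100, 123 and 147 CPM in SIR males, against 93.4, 120 and 134 CPM in control males, and 98.4, 129 and 170 CPM in SIR females, against 151, 179 and 198 CPM in control females. All 8 SIR females lay below the median control female and 6 lay below the lowest, and Ermn fell by 0.41 ± 0.10 (edgeR adjusted p = 0.0135). The males overlapped, with a log2 fold change of 0.06 ± 0.10 (adjusted p = 0.813). Gsn encodes gelsolin, which severs actin filaments. Its levels were 67.3, 72.6 and 81.0 CPM in SIR males, against 59.0, 67.1 and 81.3 CPM in control males, and 63.4, 71.7 and 80.8 CPM in SIR females, against 77.5, 83.8 and 101 CPM in control females. In females 7 of 8 SIR animals lay below the lowest control, and Gsn fell by 0.26 ± 0.06 (edgeR adjusted p = 0.0122). Anln, encoding the septin and actin scaffold anillin, had 51.0, 84.0 and 98.9 CPM in SIR males, against 61.6, 71.5 and 89.2 CPM in control males, and 62.1, 90.1 and 112 CPM in SIR females, against 86.8, 106 and 130 CPM in control females. Ppp1r14a, encoding an inhibitor of myosin phosphatase that smooth muscle also expresses, had 18.7, 21.7 and 25.1 CPM in SIR males, against 14.4, 17.4 and 24.9 CPM in control males, and 15.4, 19.6 and 24.2 CPM in SIR females, against 17.2, 21.8 and 23.7 CPM in control females. Anln and Ppp1r14a overlapped between the groups and passed in neither sex.

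Enzymes that build myelin lipids made up 4 of the genes, of which Fa2h fell in SIR females. Fa2h adds the hydroxyl group of hydroxylated galactolipids. It had 58.6, 73.9 and 84.2 CPM in SIR males, against 49.6, 63.9 and 72.5 CPM in control males, and 57.6, 73.6 and 85.3 CPM in SIR females, against 81.6, 87.4 and 95.5 CPM in control females. In females 7 of 8 SIR animals lay below the lowest control, and Fa2h fell by 0.26 ± 0.08 (edgeR adjusted p = 0.0416). This call was lost without the library labelled SIR female 5, and held in 19 of 31 fits that each left out a library. The log2 fold change of Fa2h in males, 0.17 ± 0.08, did not pass (edgeR adjusted p = 0.245). Ugt8a makes galactosylceramide, the main galactolipid of myelin. Its levels were 52.4, 72.8 and 88.0 CPM in SIR males, against 52.8, 65.1 and 86.6 CPM in control males, and 61.2, 87.4 and 96.5 CPM in SIR females, against 89.5, 104 and 116 CPM in control females. All 8 SIR females lay below the median control female, yet the log2 fold change of -0.31 ± 0.11 did not pass (edgeR adjusted p = 0.0932). Gal3st1 sulfates galactosylceramide to sulfatide. It had 14.8, 17.9 and 19.02 CPM in SIR males, against 11.5, 13.5 and 17.5 CPM in control males, and 15.3, 17.7 and 19.4 CPM in SIR females, against 17.6, 18.9 and 23.8 CPM in control females. Its value of 0.30 ± 0.08 in males missed the threshold (edgeR adjusted p = 0.0553), with all 7 SIR males above the median control male. Aspa cleaves N-acetylaspartate, whose acetate feeds lipid synthesis. It had 12.6, 15.5 and 20.3 CPM in SIR males, against 9.30, 14.4 and 16.9 CPM in control males, and 13.7, 15.9 and 20.7 CPM in SIR females, against 13.1, 19.01 and 23.05 CPM in control females, with overlap in both sexes.

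Secreted proteins made up 4 of the genes, and Trf, Apod and Enpp2 fell in SIR females. Trf had 578, 729 and 867 CPM in SIR males, against 518, 595 and 716 CPM in control males, and 565, 707 and 788 CPM in SIR females, against 752, 860 and 922 CPM in control females. In females 6 of 8 SIR animals lay below the lowest control, and Trf fell by 0.28 ± 0.07 (edgeR adjusted p = 0.0205), while its value of 0.26 ± 0.07 in males missed the threshold (0.0557). Apod had 264, 328 and 421 CPM in SIR males, against 251, 272 and 321 CPM in control males, and 235, 304 and 334 CPM in SIR females, against 324, 390 and 517 CPM in control females. All 8 SIR females lay below the median control female, and Apod fell by 0.43 ± 0.09 (edgeR adjusted p = 0.00591), the smallest p of the 32 genes in females. Enpp2 encodes autotaxin, which makes lysophosphatidic acid and is also a major product of the choroid plexus. It had 245, 319 and 344 CPM in SIR males, against 240, 273 and 323 CPM in control males, and 264, 337 and 452 CPM in SIR females, against 378, 423 and 1246 CPM in control females. The value of 1246 CPM belonged to control female 20, which also had the highest summed choroid plexus markers of all libraries, at 1972 CPM. Enpp2 fell by 0.60 ± 0.18 in females (edgeR adjusted p = 0.0476) and by 0.28 without control female 20 (adjusted p = 0.0360). The call held in 6 of 31 fits that each left out a library, and was lost without the library labelled SIR female 5. Hhip had 10.9, 13.98 and 18.5 CPM in SIR males, against 13.2, 13.9 and 16.2 CPM in control males, and 13.8, 19.7 and 22.3 CPM in SIR females, against 18.5, 20.5 and 21.9 CPM in control females. Hhip had the smallest fold change of the 32 genes in males (0.02 ± 0.09) and passed in neither sex.

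Proteins of contacts with axons, nodes and other glia made up 4 of the genes, of which Hapln2 fell in SIR females. Hapln2 encodes a link protein of the matrix at nodes of Ranvier. It had 23.5, 26.1 and 33.6 CPM in SIR males, against 20.1, 22.99 and 30.3 CPM in control males, and 22.02, 27.7 and 33.4 CPM in SIR females, against 24.7, 34.5 and 37.7 CPM in control females. All 8 SIR females lay below the median control female, and Hapln2 fell by 0.32 ± 0.09 (edgeR adjusted p = 0.0363). Gjb1 encodes connexin 32, which forms gap junctions within the sheath. It had 32.3, 40.2 and 45.8 CPM in SIR males, against 25.6, 31.5 and 40.3 CPM in control males, and 30.9, 39.3 and 40.7 CPM in SIR females, against 36.7, 47.0 and 50.1 CPM in control females. Gjb1 passed in neither sex, with 0.33 ± 0.09 in males (edgeR adjusted p = 0.0542) and -0.26 ± 0.09 in females (0.0830). Adamts4 encodes a protease of matrix proteoglycans and Cntn2 a cell adhesion protein beside the nodes that neurons also express. Adamts4 had 43.0, 47.5 and 58.8 CPM in SIR males, against 37.1, 43.3 and 65.1 CPM in control males, and 40.3, 51.1 and 55.7 CPM in SIR females, against 54.0, 60.5 and 75.2 CPM in control females. Cntn2 had 273, 296 and 364 CPM in SIR males, against 277, 294 and 335 CPM in control males, and 295, 320 and 332 CPM in SIR females, against 324, 341 and 380 CPM in control females. For both genes all 8 SIR females lay below the median control female, and neither passed (edgeR adjusted p = 0.0563 for Adamts4 and 0.116 for Cntn2 in females).

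Receptors, enzymes and stress proteins made up 4 more, and S1pr5 passed in both sexes. S1pr5, whose promoter window above holds overlapping MYRF motif matches, had 26.7, 30.6 and 39.9 CPM in SIR males, against 21.01, 24.3 and 29.7 CPM in control males. It had 23.9, 25.9 and 30.9 CPM in SIR females, against 27.7, 33.0 and 42.9 CPM in control females. All 7 SIR males exceeded the median control male and all 8 SIR females lay below the median control female. The log2 fold change of S1pr5 was 0.39 ± 0.09 in males (edgeR adjusted p = 0.0261) and -0.35 ± 0.09 in females (edgeR adjusted p = 0.0177). Cryab encodes a small heat shock protein. It had 152, 172 and 199 CPM in SIR males, against 89.1, 131 and 191 CPM in control males, and 134, 173 and 197 CPM in SIR females, against 181, 222 and 264 CPM in control females. All 8 SIR females lay below the median control female, and Cryab fell by 0.41 ± 0.10 (edgeR adjusted p = 0.0218), while its log2 fold change of 0.32 ± 0.11 in males did not pass (0.110). Car2 encodes carbonic anhydrase II and had 228, 255 and 327 CPM in SIR males, against 197, 240 and 291 CPM in control males, and 234, 258 and 299 CPM in SIR females, against 271, 301 and 346 CPM in control females. Ndrg1, a stress-responsive gene, had 200, 222 and 257 CPM in SIR males, against 189, 201 and 214 CPM in control males, and 185, 249 and 278 CPM in SIR females, against 222, 259 and 294 CPM in control females. Neither Car2 nor Ndrg1 passed within a sex, and their groups overlapped.

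Prr18, a gene of little described function, passed in both sexes. It had 80.02, 93.3 and 102 CPM in SIR males, against 61.8, 75.0 and 90.1 CPM in control males. It had 71.5, 83.3 and 92.5 CPM in SIR females, against 89.0, 98.7 and 117 CPM in control females. Of the 7 SIR males 5 exceeded the highest control, and 7 of 8 SIR females lay below the lowest control. Prr18 rose by 0.32 ± 0.07 in males (edgeR adjusted p = 0.0219) and fell by 0.27 ± 0.07 in females (edgeR adjusted p = 0.0190).

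**Figure D3:**
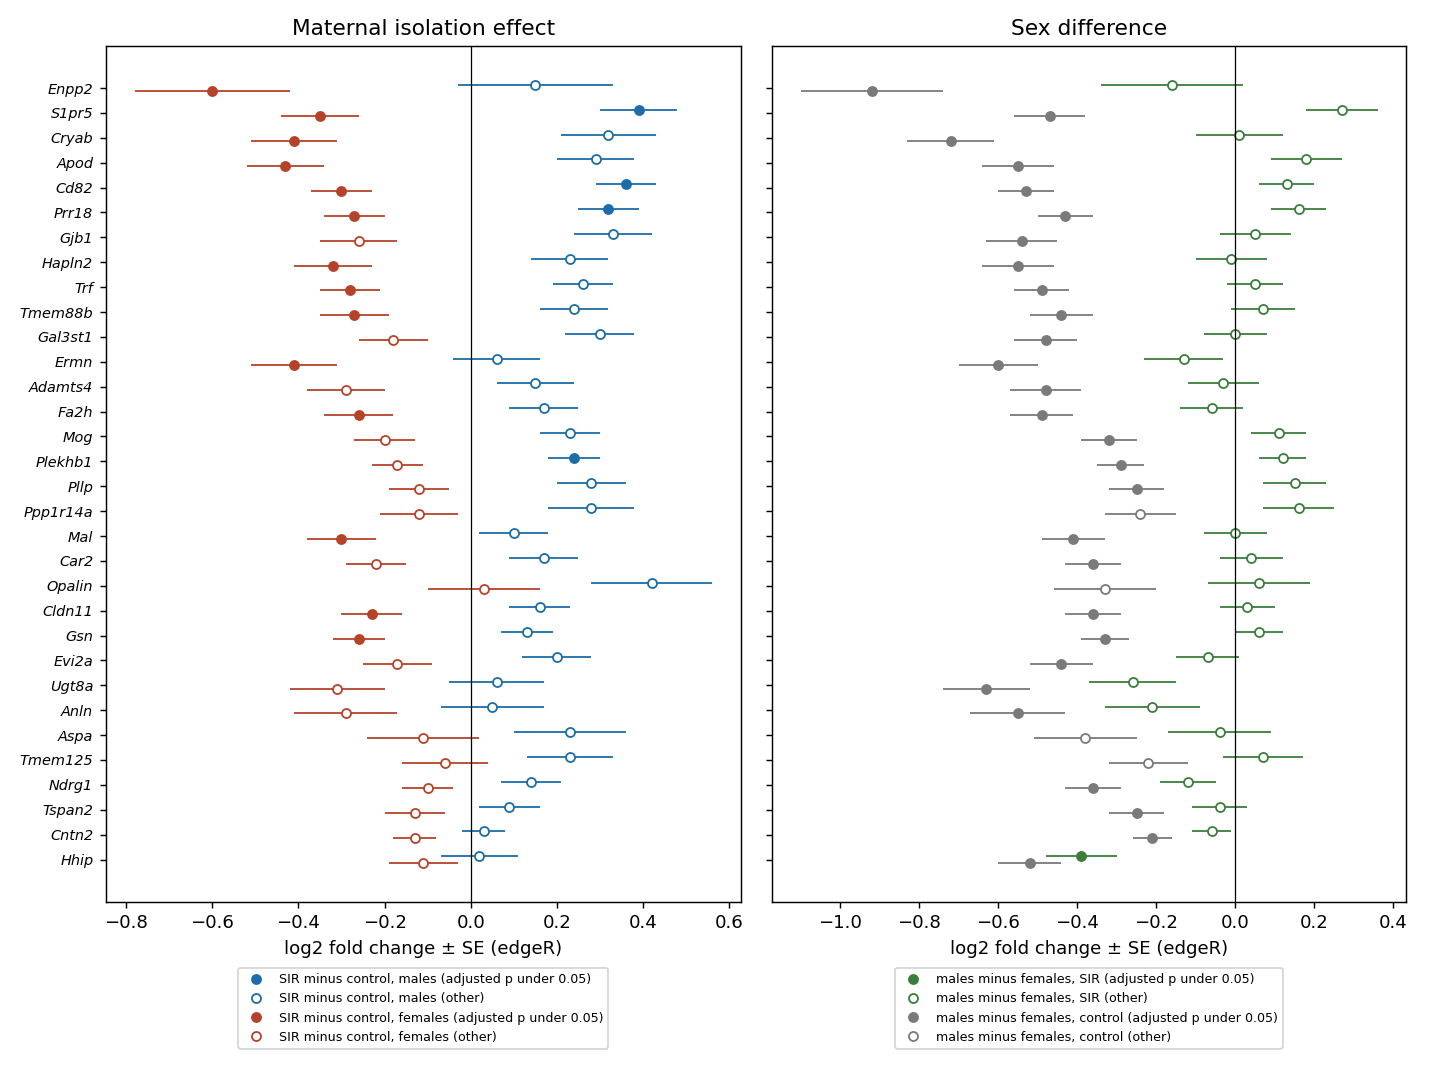
Log2 fold changes of the 32 genes with their SE. Left, SIR minus control in males (blue) and females (red); right, males minus females within SIR (green) and within control animals (grey). Filled points have an adjusted p under 0.05; the male values lie right of 0 and the female values left of it, apart from Opalin (0.03 in females), and the sex difference runs from -0.39 (Hhip) to 0.27 (S1pr5) in SIR animals and is negative throughout in controls.

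Averaged over the sexes, no member differed between SIR and control offspring by edgeR, where 4.55% of all tested genes passed in either direction. At an unadjusted p under 0.05, 2 of 32 members and 22.05% of all genes passed, and DESeq2, limma-voom and limma-trend called none of the members. The median over the members was -0.02, with 14 positive and 18 negative values. Among the alternative settings run, 1 member, Opalin, passed without control male 27 and 1, Ermn, with the major myelin score below as a covariate, and none in the others.

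Whether the housing effect differed between males and females was tested directly, as the interaction of housing and sex. It was positive for all 32 genes, with a median of 0.41 on the log2 scale beside 0.00 over all tested genes, and 18 genes passed, against 1.08% of all tested genes in that direction. S1pr5 (0.74 ± 0.12, edgeR adjusted p = 0.000987), Cryab (0.73 ± 0.15, 0.00584), Apod (0.72 ± 0.13, 0.00134) and Cd82 (0.66 ± 0.10, 0.000773) had the largest values among those that passed. Enpp2, at 0.75 ± 0.26, did not pass (0.117). Of the 11 membrane genes 7 passed, among them Mog (0.43 ± 0.10, edgeR adjusted p = 0.0114) and Pllp (0.40 ± 0.11, 0.0308), neither of which had passed within a sex. Gjb1 (0.59 ± 0.13, edgeR adjusted p = 0.00764), Gal3st1 (0.48 ± 0.11, 0.0144) and Car2 (0.39 ± 0.11, 0.0345) likewise passed only here among the housing comparisons. Of the 4 cytoskeletal genes Gsn alone passed, of the 4 lipid enzymes Fa2h and Gal3st1, of the 4 secreted proteins Trf and Apod, and of the 4 contact proteins Gjb1 and Hapln2. Without the library labelled SIR female 5, 18 genes passed as well, and the count lay between 15 and 21 when any single library was left out.

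Sex differences carried the largest counts, and they were seen in control animals. Averaged over housing, 21 of the 32 genes were lower in males than in females and none was higher, against 5.65% of all tested genes that were lower. The median log2 difference was -0.20 and all 32 values were negative. Comparisons of the sexes within each housing group were added after the values had been seen. Within control animals 28 of 32 genes were lower in males, against 4.29% of all tested genes, with a median of -0.44 and all 32 values negative. Within SIR animals 1 gene, Hhip, was lower in males, against 2.54% of all tested genes, with a median over the members of 0.02 and 17 of 32 values positive. At an unadjusted p under 0.05, 4 of 32 members and 18.73% of all tested genes differed between SIR males and SIR females, and 32 of 32 members and 23.55% of all tested genes between control males and control females. Without the library labelled SIR female 5, 20 genes passed averaged over housing, 1 within SIR and 28 within controls. Markers of other cells differed between the sexes of controls as well. Of 13 choroid plexus markers 9 were lower in males (median -2.44), and of 15 mural and leptomeningeal markers 3 were (median -0.30, 14 negative). Hypothalamic markers ran the other way: of 11, 10 were higher in males and 1 lower (median 0.69), though none passed by edgeR. The 12 genes of that list summed to a median of 68.9 CPM in control females (33.5 to 474), against 342 CPM in control males (60.0 to 479). The median was 402 CPM in SIR males and 277 CPM in SIR females. The part of the hypothalamic markers was not tested. With the choroid plexus score as a covariate 29 of the 32 genes passed within controls (median -0.46), and with the mural and leptomeningeal score 24 did (median -0.40). The interaction above is the test of the difference between these sex differences.

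Among controls, Enpp2 differed by -0.92 ± 0.18 (edgeR adjusted p = 0.00192), Cryab by -0.72 ± 0.11 (9.09e-05) and Ugt8a by -0.63 ± 0.11 (0.000468). The value of Enpp2 was -0.59 without control female 20, smaller in size than that of Cryab or Ugt8a with all libraries kept, and it passed by edgeR there too. Cd82 had the smallest p, with -0.53 ± 0.07 (edgeR adjusted p = 4.68e-05). The groups did not overlap for 12 genes (Ermn, Ugt8a, Trf, Apod, Cd82, Fa2h, Enpp2, Ndrg1, Tmem88b, Hhip, Gal3st1 and Evi2a): each of the 8 control males lay below each of the 8 control females, against 0.497% of all tested genes. No member was without overlap between SIR males and SIR females (0.665% of all tested genes were lower without overlap), between SIR and control males (0.114% higher) or between SIR and control females (0.222% lower). Opalin (-0.33 ± 0.13), Aspa (-0.38 ± 0.13), Ppp1r14a (-0.24 ± 0.09) and Tmem125 (-0.22 ± 0.10) did not pass among controls (edgeR adjusted p = 0.118, 0.0590, 0.105 and 0.180). Hhip was lower in males in both housing groups, with log2 differences of -0.39 ± 0.09 in SIR (edgeR adjusted p = 0.0100) and -0.52 ± 0.08 in controls (0.000242), and it had the smallest interaction of the 32 genes, 0.13 ± 0.12 (0.676). Across the 3 housing comparisons and the sex comparison averaged over housing, Opalin, Ppp1r14a, Aspa, Tmem125 and Tspan2 did not pass once.

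The 4 major myelin genes showed the same directions. Mbp (0.28 ± 0.07, edgeR adjusted p = 0.0412) and Cnp (0.22 ± 0.06, 0.0458) rose in SIR males. Mbp (-0.29 ± 0.07, edgeR adjusted p = 0.0156) and Mobp (-0.36 ± 0.08, 0.00679) fell in SIR females. All 4 passed the interaction and all 4 were lower in control males than in control females. Of 17 regulators and markers of the oligodendrocyte lineage, Olig1 rose in SIR males (0.32 ± 0.06, edgeR adjusted p = 0.0149), and Myrf (-0.31 ± 0.07, 0.00746), Bcas1 (-0.33 ± 0.08, 0.0150), Nkx2-2 (-0.37 ± 0.09, 0.0196) and Gpr37 (-0.23 ± 0.07, 0.0459) fell in SIR females. Myrf encodes the factor whose motif is marked above, and Sox10, a SOX factor of the lineage, passed in neither sex (0.24 ± 0.07 in males, -0.22 ± 0.07 in females) but passed the interaction (0.46 ± 0.10, edgeR adjusted p = 0.00878). Of 15 genes of myelin lipid metabolism outside the 32 genes, among them genes of lipid breakdown and transfer, 4 fell in SIR females. These were the ceramide synthase gene Cers2 (-0.23 ± 0.06), the fatty acid elongase genes Elovl7 (-0.39 ± 0.10) and Elovl1 (-0.27 ± 0.07), and the dihydroceramide desaturase gene Degs1 (-0.14 ± 0.04). Their edgeR adjusted p-values were 0.0175, 0.0195, 0.0262 and 0.0248. The median of the 15 in females was -0.06, with 11 negative and 4 positive values. None of the 15 passed in males, where the median was 0.04. Of 13 axonal and junction partners, none passed within a sex by edgeR, 5 in males and 4 in females had an unadjusted p under 0.05, and the oligodendrocyte connexin gene Gjc3 (0.48 ± 0.13, adjusted p = 0.0397) passed the interaction.

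Markers of other cells moved with the 32 genes in part. Of 15 mural and leptomeningeal markers, none passed in males and 3 fell in females, the smooth muscle genes Acta2 (-0.48 ± 0.13, edgeR adjusted p = 0.0352) and Tagln (-0.52 ± 0.14, 0.0299) and the stromal gene Islr (-0.83 ± 0.22, 0.0268). Their median log2 fold change was 0.26 in males and -0.24 in females, and their summed level was 361 to 481 CPM in SIR males, against 308 to 405 CPM in control males, and 340 to 412 CPM in SIR females, against 361 to 493 CPM in control females. With the score of that list as a covariate, none of the 32 genes passed in males, in females or in the interaction by edgeR, with medians of 0.18, -0.21 and 0.37, while 12, 20 and 21 genes had an unadjusted p under 0.05. The choroid plexus markers summed to 26.8 to 46.8 CPM in SIR males, against 34.1 to 84.0 CPM in control males, and to 33.6 to 293 CPM in SIR females, against 33.2 to 1972 CPM in control females. Of 13 that could be tested, none passed in males, and Prlr (-0.89 ± 0.26, edgeR adjusted p = 0.0435) and Slc4a5 (-2.44 ± 0.68, 0.0363) fell in females. All 13 were negative in females, with a median of -1.99 and 10 at an unadjusted p under 0.05, beside a median of -0.40 and none at that level in males. Of 11 hypothalamic markers none passed in either sex by edgeR, with 0 in males and 2 in females at an unadjusted p under 0.05, and of 5 midbrain markers Slc6a3 (-4.52 ± 0.93, 0.00655) and Pax7 (-5.17 ± 1.10, 0.00716) fell in females. Of 10 thalamic relay markers, Necab1 fell in SIR males (-0.79 ± 0.19, edgeR adjusted p = 0.0316) and rose in SIR females (0.83 ± 0.18, 0.00843), and Calb2 (0.71 ± 0.14, 0.00455) and Gbx2 (0.53 ± 0.14, 0.0248) rose in SIR females. Of 13 general neuronal markers, none passed in males and Tubb3 rose in females (0.24 ± 0.06, edgeR adjusted p = 0.0109), with medians of 0.04 and 0.02. Of 11 astrocyte markers, S100b, which oligodendrocytes also express, rose in SIR males (0.23 ± 0.06, edgeR adjusted p = 0.0442) and Slc1a3 rose in SIR females (0.24 ± 0.07, 0.0476). No endothelial or microglial marker passed in either sex by edgeR, with 3 of 10 and 4 of 10 at an unadjusted p under 0.05 in males and 0 of 10 each in females. The slope of expression on log2 transcript length averaged -0.039 ± 0.024 (SD, n = 7) in SIR males and 0.005 ± 0.022 (n = 8) in control males, and 0.001 ± 0.017 (n = 8) in SIR females and 0.029 ± 0.026 (n = 8) in control females. With this length trend removed, 3 genes passed in males, 13 in females and 20 in the interaction. The part of these markers and of length in the differences of the 32 genes was not tested further.

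Across the 31 libraries the 32 genes varied together. All 496 pairs had a positive Pearson's r of log2 CPM, with a median of 0.69 and a range of 0.17 to 0.94. Pairs among 2975 tested genes, taken at even steps through the table, had a median r of 0.00. After each gene was centred on its group means, 484 of 496 pairs stayed positive and the median was 0.50. Ermn and Ugt8a, the actin-binding protein and the galactolipid enzyme, had the highest r, 0.94 (0.89 centred), and Opalin and Ndrg1 the lowest, 0.17 (-0.22 centred). These pairs share libraries, scaling and tissue composition, so the values are descriptions.

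**Figure D4:**
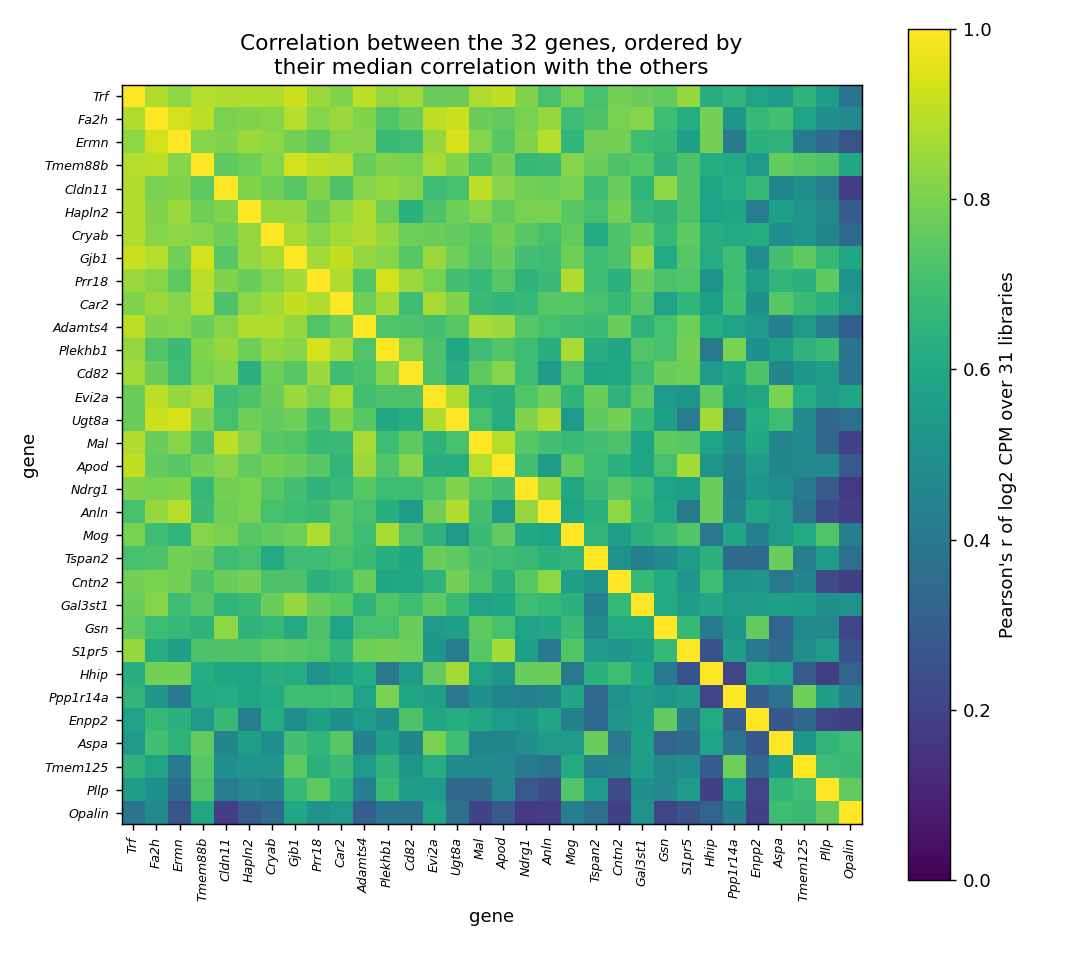
Pearson's r of log2 CPM between each pair of the 32 genes over the 31 libraries, on a colour scale from 0 to 1, with genes ordered by their median r with the others. The values run from 0.17 to 0.94, with Trf first in the order and Opalin, with a median r of 0.37, last.

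Each gene was set against a score of Mbp, Mag, Mobp and Cnp, the mean of their centred log2 CPM. Pearson's r ran from 0.40 to 0.95 with a median of 0.82, and Spearman's rho from 0.23 to 0.94 with a median of 0.83. By permutation tests adjusted over 64 relations, 31 of 32 genes passed, and 24 had the smallest p that 100000 permutations can give, 1e-05. Libraries were permuted across the groups, so group differences that a gene shares with the score enter these p-values. The result is therefore a description and no test of the label. By Pearson's r Trf was closest, with r = 0.95 and rho = 0.92 over n = 31 libraries (permutation p = 1e-05), and Plekhb1 followed with r = 0.92 and rho = 0.92. By rho Cldn11 was closest (0.94). Opalin was farthest by both measures, with r = 0.40 and rho = 0.23 (permutation p = 0.0275 and 0.208, adjusted p = 0.0502 and 0.341). By Pearson's r Hhip stood next above it (r = 0.53, rho = 0.51, permutation p = 0.00218 and 0.00384, adjusted p = 0.00436 and 0.00819). By rho Aspa (0.49) lay below Hhip. Without the 2 libraries farthest from the median score, control males 22 and 25, r was 0.94 for Trf, 0.90 for Plekhb1, 0.16 for Opalin and 0.49 for Hhip, with a median of 0.79 over the members. Centred on group means the median r was 0.68, with 0.16 for Opalin, 0.18 for Enpp2 and 0.89 for Trf, and no p was computed for the centred values. Within the groups the median r was 0.66 in SIR males and 0.80 in control males, and 0.81 in SIR females and 0.49 in control females, each over 7 or 8 libraries. With the major myelin score as a covariate, an alternative added after the values had been seen, none of the 32 genes passed in males, in females or in the interaction by edgeR, with medians of 0.02, -0.01 and 0.00, and 4, 1 and 1 genes had an unadjusted p under 0.05. The genes of that covariate differed between the groups themselves, as given above.

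Enpp2 had r = 0.57 and rho = 0.79 against the major myelin score (permutation p = 0.00021 and 1e-05, adjusted p = 0.000448 and 2.91e-05). By Pearson's r it stood next above Hhip, level with Aspa (0.57). Against a score of the 13 choroid plexus markers that could be tested Enpp2 had r = 0.82 and rho = 0.37 (permutation p = 4e-05 and 0.0419, adjusted p = 9.14e-05 and 0.0789). Without control female 20 and SIR female 11, the libraries farthest from the median of that score, its r was 0.47. Gsn (r = 0.50, rho = 0.14) and Hhip (r = 0.42, rho = 0.44) also passed against that score by Pearson's r (adjusted permutation p = 0.00890 and 0.0251). Over the 32 genes the median r was 0.20 and the median rho 0.03, and centred on group means the median r was -0.14. Within the groups the median r was -0.61 in SIR males, -0.42 in control males, 0.11 in SIR females and -0.30 in control females. Without the same 2 libraries r was 0.31 for Gsn and 0.44 for Hhip, so that the values of Enpp2 and Gsn rest in part on those libraries.

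**Figure D5:**
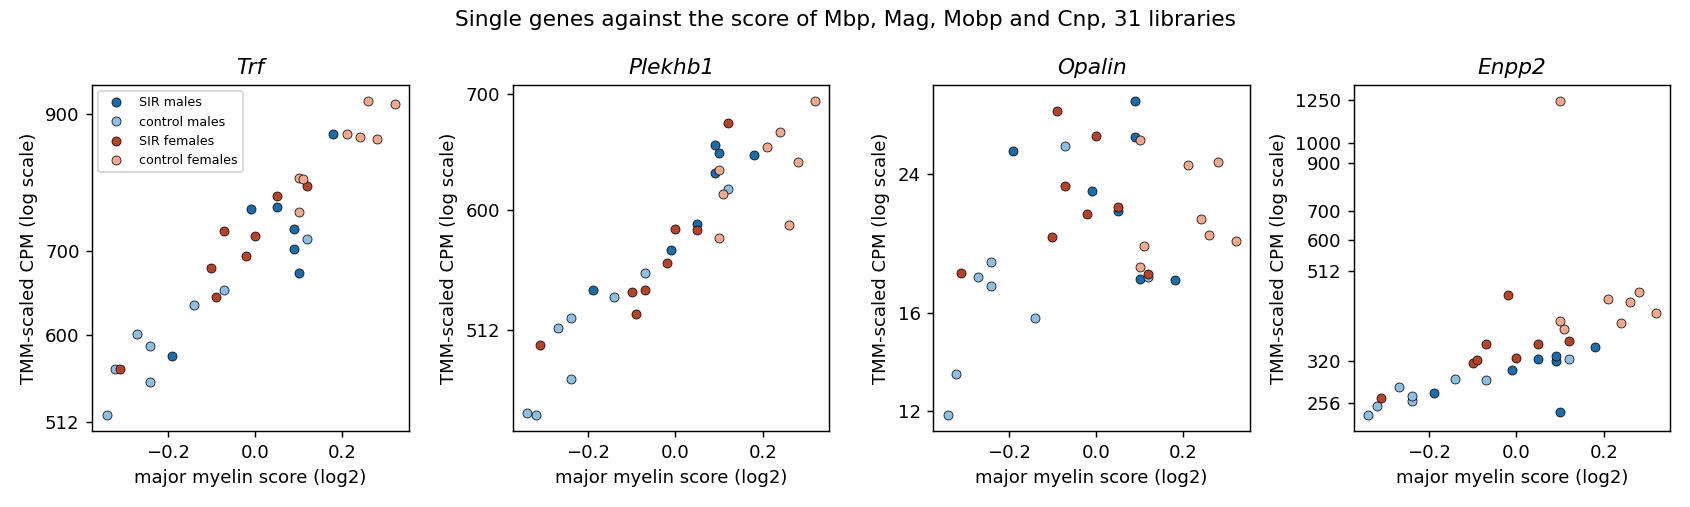
Level of 4 genes in each of the 31 libraries (TMM-scaled CPM, log axes) against the score of the 4 major myelin genes (mean centred log2 CPM), coloured by group. Trf (r = 0.95) and Plekhb1 (r = 0.92) follow the score closely, Opalin (r = 0.40) does not, and in Enpp2 control female 20 stands apart at 1246 CPM.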

How the data were processed

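RNA was extracted with a Qiagen AllPrep kit and converted to libraries with the stranded mRNA ligation kit of Illumina, per the labels' protocols. FastQC, kallisto and the build GRCm39 are named, per the submitters' processing notes. Their versions and the use of strand were not given in these sources, so overlapping and antisense genes are uncertain. For 105878 transcripts per library, the deposited tables hold estimated counts, TPM and effective lengths, per the file headers. Estimated counts deposited by the authors need not be whole, and by their values they were not normalized. TPM values deposited by the authors had been divided by effective length and brought to a common total per library. The effective length is another value deposited by the authors.

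Of the transcripts, 104949 (99.12%) were matched by identifier to GENCODE M21 (the older build GRCm38), used for names and chromosomes only; the other 929 took 0.69% to 0.76% of a library's counts and were left out. Gene counts were the sums of estimated counts, rounded to whole numbers. Genes kept by filterByExpr were scaled by TMM and fitted in edgeR 4.0.16 (R 4.3.3) with 4 group means and robust quasi-likelihood (common biological coefficient of variation 0.13). Benjamini-Hochberg adjustment of p-values ran over the 14886 genes tested. Limma 3.58.1 and DESeq2 1.42.0 served as alternatives. Log2 CPM used a prior count of 2. Correlations were tested with 100000 permutations across all libraries, not within groups. The fit was tested first on simulated data, for SIR against control males. It called 97% of 100 genes changed by 0.6 on the log2 scale, but 29% of 100 genes changed by 0.3. No call had the wrong sign, and 4 unchanged genes were called. Changes near 0.3 can thus be missed, and a gene that did not pass may still differ.

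The 32 genes, the marker lists and the motifs were chosen with earlier results of these data known. Values per group are given for members that passed in any comparison, for the 3 of smallest p in each housing comparison, for the highest and lowest TPM and for the 2 closest to and 2 farthest from the major myelin score, and by the same form for the other members. The major myelin score is over 4 genes and the axonal and junction list over 13, since some genes of the lists are not reported here. Genes outside the 32 are named only as major myelin genes or as list members that passed a housing comparison, at most 4 per list by smallest p. Alternatives were other scaling, filters, tools, length corrections, marker scores as covariates, libraries left out and a threshold of 0.1. The major myelin covariate, the joint removal of SIR female 5 and control female 20, and the sex comparisons within each housing group were added after the data were seen. Promoter windows are from RefSeq on GRCm38.p6.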

Additional observations from a re-analysis of the deposited data

Results flagged for a closer look

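The housing effect differed between the sexes for 18 of the 32 genes, as log2 fold changes in males minus those in females, by edgeR's interaction test. The differences were 0.74 for S1pr5, 0.73 for Cryab, 0.72 for Apod and 0.66 for Cd82. They were 0.59 for Gjb1 and Prr18, 0.54 for Trf and Hapln2, 0.51 for Tmem88b and 0.48 for Gal3st1. The remaining genes had 0.43 (Mog and Fa2h), 0.41 (Plekhb1), 0.40 (Mal and Pllp), 0.39 (Cldn11 and Car2) and 0.38 (Gsn).

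For 32 genes in 4 groups, 128 groups were examined. In 9 of them the highest or lowest library stood apart from the rest by a large share of the group's range in log2 CPM. Chance gives such a gap in about 1 in 20 groups that are independent. The 128 groups share libraries and hold correlated genes, so 9 of 128 cannot be set against that share. Several of the 9 fell in the same libraries, as listed next. SIR female 2 was low in Tmem88b (gap of 0.68 of the range), Adamts4 (0.63) and Fa2h (0.53). SIR male 4 was low in Cldn11 (0.60). Control male 23, of 14.81 M counts, was high in Hapln2 (0.58), Adamts4 (0.57) and Cldn11 (0.54). Control female 20 was high in Enpp2 (0.84), at 1246 CPM beside 458 CPM in the next library, and low in Hapln2 (0.67), at 24.7 CPM beside 32.8 CPM.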

How the results depend on the processing

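No paired analysis was possible because the numbers in the sample titles run from 1 to 31 and no 2 groups share a number. In the male housing comparison (4 genes by edgeR), 11 genes passed at a threshold of 0.1, 8 with upper quartile scaling or a filter of 1 CPM in 15 libraries, 7 without SIR female 5 and control female 20, 2 in males fitted alone, 11 without the 8 libraries of numbers apart, and 12 with limma-voom, DESeq2 or without the 2 libraries of lowest total. In the female comparison (14 genes), 9 passed with no filter, 7 with length offsets, 8 with limma-trend on log2(TPM + 1) or log2(TPM + 0.1), and 0 without the 8 libraries of numbers apart. In the interaction (18 genes), 11 passed with limma-trend on either TPM scale. Within SIR animals (1 gene, Hhip), 2 differed between the sexes at a threshold of 0.1, and 0 with length offsets, in SIR animals fitted alone, with limma-trend on either scale or with the mural and leptomeningeal score as a covariate. That covariate left 0 genes in males, females and the interaction.

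The major myelin covariate left 0 genes in males, females, the interaction and the sex difference within controls, 3 in the sex difference averaged over housing and 1 over both sexes. With it the medians were 0.02 in males, -0.01 in females, 0.00 in the interaction, and -0.08 for males minus females and within controls. Signs then turned for Cldn11 in females (0.01); for Mog (-0.01), Cldn11 (-0.07), Mal (-0.11), Hapln2 (-0.01) and Car2 (-0.03) in the interaction; and for Mog (0.03), Cldn11 (0.01), Mal (0.00), Plekhb1 (0.03) and Tspan2 (0.01) within controls. The causes were not tested.

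Leaving out each library in turn gave 0 to 10 genes in males (median 0.18 to 0.26), 7 to 15 in females (-0.27 to -0.22), 0 to 1 over both sexes (-0.03 to 0.00) and 15 to 21 in the interaction (0.38 to 0.45). It gave 18 to 24 for males minus females (-0.22 to -0.18), 1 to 1 within SIR (-0.01 to 0.05) and 27 to 30 within controls (-0.47 to -0.39). The median correlation with the major myelin score, 0.82, was 0.68 on values centred on group means. Of 4347 values of single genes that had passed, 3927 kept direction and call, 409 kept direction only and 11 turned. Most of these values come from fits that left out 1 library, and a threshold of 0.1 on the same fit cannot lose a call. Single calls differed: in females Enpp2 kept its call in 5 of the 20 other alternatives, Fa2h in 9 and Apod in 17. The precision of each value is limited by 7 or 8 animals a group and totals of 13 to 25.74 M counts.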

Other observations

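The transcripts behind these genes were spread unevenly. A single transcript held over 90% of the gene's TPM, as the median of the 31 libraries, in 14 of the 32 genes and over 50% in 29, while 16 genes had at least 2 transcripts at 10% or more. Trf was split between Trf-201 (34.4%), Trf-203 (33.0%) and Trf-209 (30.9%), the last annotated as a retained intron. The leading transcript of Apod, Apod-201 (52.0%, range 48.2% to 60.0%), is annotated as a retained intron too, ahead of the protein-coding Apod-202 (38.0%). Prr18-202 held 69.1% of Prr18 and Prr18-201 the other 30.9%, with medians of Prr18-202 of 69.4% in SIR males and 69.1% in control males, and of 68.4% in SIR females and 68.6% in control females. Cd82 was spread over Cd82-201 (48.0%), Cd82-202 (24.5%) and Cd82-204 (23.4%). Hapln2 was spread over the protein-coding Hapln2-201 (44.2%), a retained intron (30.5%) and a transcript subject to nonsense-mediated decay (16.2%). These shares were not tested between groups.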
